A study of Homo sapiens with 6 samples.

Results

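Collagens are the structural proteins of the extracellular matrix. Each molecule is a helix of chains wound together, and the chains come from separate genes, so the molecules a cell can make depend on which chain genes it transcribes together. Fibrillar collagens build fibrils, collagen IV builds the sheet of basement membranes, collagen VI builds beaded filaments, and transmembrane collagens stay anchored in the cell surface. The chains need oxygen-dependent hydroxylation of proline and lysine to fold and crosslink, and meningeal tissue is rich in collagen.

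Collagen chain genes were taken as all protein-coding genes in the count table whose symbol is COL, a number, A and a number. This gave 44 of 61859 genes. RNA was measured by sequencing in IOMM-Lee, an established human line of malignant (grade 3) meningioma cells, which is 1 cell line without genetic modification named in the labels. Libraries came from 3 biological replicates kept in normoxia and 3 kept at 0.2% oxygen in a hypoxia workstation, both for 48 h and in the same serum-containing medium. The question addressed here is how these chains responded to low oxygen.

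The libraries held between 10619864 and 19554178 counts. Levels are given as CPM, read counts scaled to a common library size with TMM factors, and 3 counts, taken as the floor of detection for counting error, corresponded to between 0.133 and 0.316 CPM. Hypoxia replicate 3 stood apart from the other hypoxia libraries on the second principal component of all genes (47.7 against -27.2 and -20.1). The oxygen-responsive carbonic anhydrase gene CA9 was at 61.2 to 87.9 CPM in normoxia and at 892 to 949 CPM in hypoxia. Of 8 meningioma and arachnoid markers only DSP, MUC1, CRABP2 and SSTR2 passed the filter on low counts. PTGDS, PGR, SLC47A1 and CLDN11 were below 0.1 CPM on average in both groups. The 8 summed to between 99.1 and 104 CPM in normoxia and between 444 and 546 CPM in hypoxia, mostly from DSP (91.1 and 274 CPM on average) and CRABP2 (3.18 and 185 CPM), while SSTR2 fell from 0.844 to 0.300 CPM. Of 5 mesenchymal markers, VIM at 3050 and 6150 CPM and S100A4 rose, PDGFRB fell from 11.5 to 4.28 CPM, and CDH2 and THY1 were not called. Among markers of other cell types, 6 leukocyte genes summed to between 24.4 and 33.6 CPM in normoxia, nearly all from CD74, and to between 4.94 and 7.06 CPM in hypoxia. For 6 endothelial genes the sums were 3.55 to 4.26 and 1.69 to 5.24 CPM, and for 6 keratinocyte and epithelial genes 13.2 to 18.4 and 24.7 to 55.8 CPM. KRT14 and KRT1 were at 0 in all 6 libraries. For 6 neural and glial genes the sums were 22.5 to 27.7 and 12.6 to 14.4 CPM. In normoxia CD74, KRT10, RBFOX3 and OLIG2 each averaged above the meningioma marker MUC1, which was at 6.04 CPM. Of the neural and glial genes, MAP2, MBP and OLIG2 fell, and RBFOX3, at 9.33 and 7.61 CPM on average, was not called. The part of these shifts in the collagen results was not tested.

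Of the 44 chains, 21 were expressed well enough to be tested and 23 were not. Under hypoxia 9 chains rose and 1 fell, and 11 were not called (edgeR quasi-likelihood test, adjusted p under 0.05 over all genes). The rises were in COL5A1, COL7A1, COL11A2, COL17A1, COL27A1, COL1A1, COL6A3, COL13A1 and COL6A1, and the fall was in COL4A5. Over all 16411 genes tested, 62.2% were called, 31.2% higher and 31.0% lower, so a call by itself was common in this comparison. COL5A1, COL7A1 and COL11A2 rose at least 4-fold and no chain fell that far, where such rises made up 5.19% and such falls 5.72% of all tested genes. The median log2 change of the 21 chains was 0.50, beside 0.01 over all tested genes. COL1A1, COL8A2 and COL11A2 passed the filter on low counts in all hypoxia libraries but not in all normoxia libraries, a way of entry that favours a rise. COL4A3 passed it in all normoxia libraries but in only 1 hypoxia library, which favours a fall. Among the 15 chains above the filter level in all 6 libraries, 7 rose, 1 fell and 7 were not called. For 11 of the 21 chains the groups did not overlap, compared with 67.9% of all tested genes. In bulk RNA, a change in RNA per cell and a change in the share of cells that express a gene cannot be told apart.

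**Figure D1:**
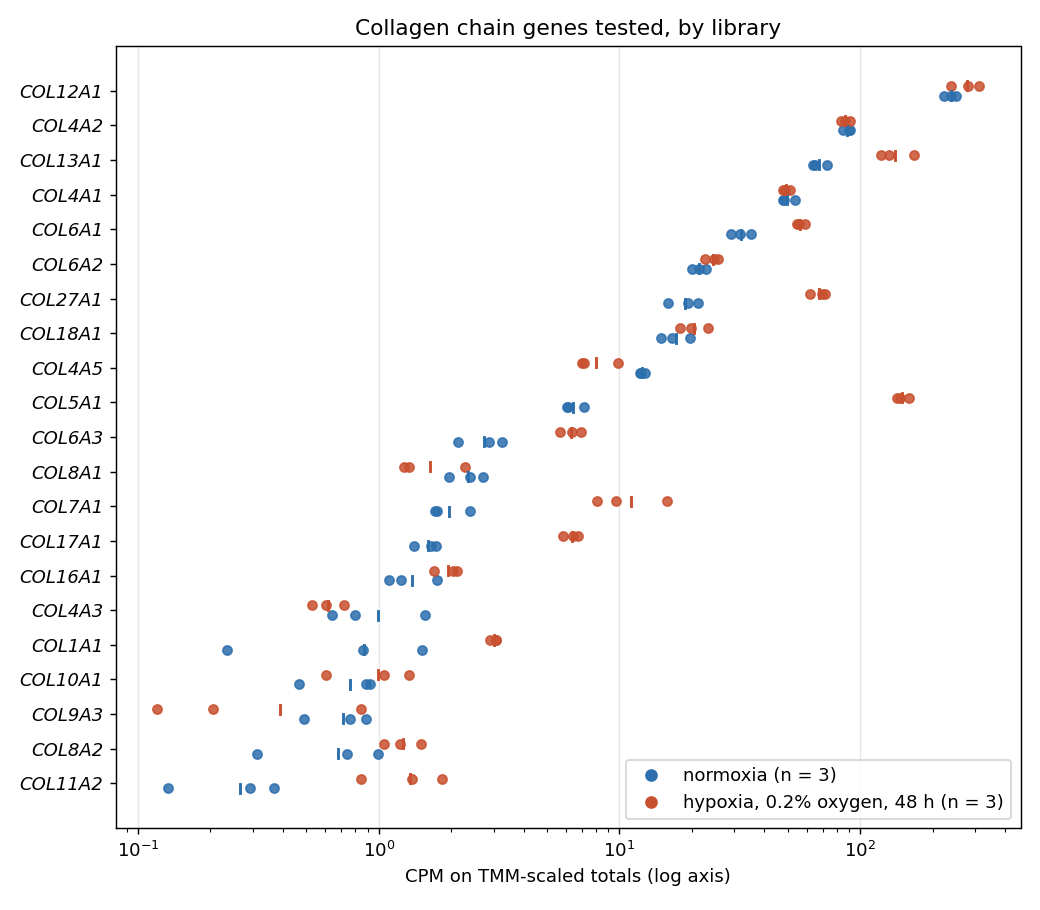
CPM of each tested collagen chain gene in each library on a log axis, ordered by the normoxia mean. Points are libraries and short bars are group means. COL12A1 had the highest CPM, not corrected for length, in all 6 libraries, and COL5A1 moved from between 6.07 and 7.10 CPM to between 142 and 159 CPM.

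Taken as a sum, the 44 chains went from 595, 557 and 555 CPM in normoxia to 857, 916 and 980 CPM in hypoxia. Every hypoxia library lay above every normoxia library. Without scaling factors they made up 0.0592% to 0.0686% of the counts in normoxia and 0.0740% to 0.0882% in hypoxia, which again did not overlap. Without COL5A1 the sums were 588, 551 and 549 CPM against 711, 757 and 838 CPM. This separation rests on the scaling factors. Without COL5A1 and without scaling factors, the share of the counts was lower in hypoxia replicate 1 than in normoxia replicate 1, so the groups overlapped. The make-up of this sum also shifted. COL5A1 took 1.09% to 1.19% of the collagen counts in normoxia and 14.5% to 17.3% in hypoxia. COL27A1 went from between 2.86% and 3.82% to between 7.10% and 7.82%. COL12A1 went from between 40.3% and 42.9% to between 27.8% and 32.0%, and the collagen IV chain COL4A2 from between 15% and 16.3% to between 8.48% and 10.1%. Neither COL12A1 nor COL4A2 was itself called lower.

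**Figure D2:**
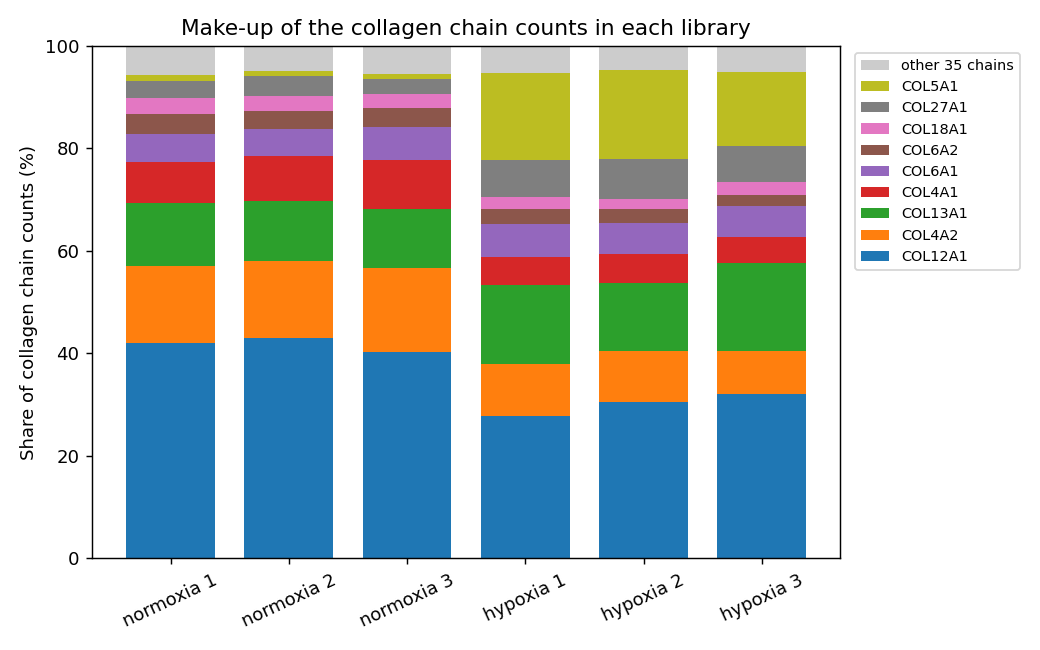
Share of all collagen chain counts (%) taken by 9 abundant chains and by the other 35 together, 1 bar per library. COL5A1 is a thin band of at most 1.19% in normoxia and takes 14.5% or more in hypoxia, while the band of COL12A1 narrows from at least 40.3% to at most 32.0%.

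Levels of different chains can be compared only per length, here as CPM per kilobase of the union of annotated exons. On that scale COL12A1 led in normoxia at 19.0 ± 1.08 (SD, n = 3), followed by COL13A1 at 11.4 ± 0.838, COL6A1 at 6.0 ± 0.584, COL4A2 at 4.58 ± 0.155 and COL6A2 at 3.99 ± 0.284. In hypoxia COL13A1 at 23.9 ± 4.14 and COL12A1 at 22.2 ± 3.01 lay within each other's spread, and COL5A1 came next at 13.3 ± 0.785, up from rank 10 of 44 in normoxia. COL6A1 followed at 10.6 ± 0.424 and COL27A1 at 4.84 ± 0.359, whose spread took in COL6A2 at 4.53 ± 0.291 and COL4A2 at 4.5 ± 0.207. The order depends on the length used. With the length of the principal annotated transcript, an alternative chosen after the data were seen, COL13A1 at 21.1 ± 1.55 and COL12A1 at 20.3 ± 1.15 lay within each other's spread in normoxia, COL13A1 led in hypoxia at 44.1 ± 7.66 (SD, n = 3), COL4A2 was at 13.6 and 13.4, and COL5A1 kept rank 3 in hypoxia at 17.6.

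Fibrillar collagen chains held the largest change of any single chain. Of 11 members, 4 were tested and 7 were too low to test. All 4 were called higher, beside 31.2% of all tested genes. COL5A1 and COL27A1, above the filter level in every library, rose, and so did COL1A1 and COL11A2, which passed the filter through their hypoxia level, so that their direction is no independent support. Their summed level went from 29.9, 29.2 and 23.7 CPM to 214, 236 and 216 CPM. COL5A1 (ENSG00000130635, GRCh38 chromosome 9, 134641774 to 134844843), the chain of collagen V that starts fibrils and limits their width, was at 7.10, 6.13 and 6.07 CPM in normoxia and at 147, 159 and 142 CPM in hypoxia. The groups lay far apart and the 3 libraries within each group lay close together. Its log2 change was 4.53 ± 0.12 (SE, edgeR adjusted p = 1.45e-09), with a 95% interval of 19.2-fold to 27.6-fold, and it ranked 58 of 16411 tested genes from the highest rise.

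COL27A1 (ENSG00000196739, chromosome 9, 114155560 to 114312511), a minor fibrillar chain known from cartilage, was at 19.3, 21.3 and 15.9 CPM and then at 62.1, 71.7 and 69.5 CPM. All hypoxia libraries were above all normoxia libraries, and the rise was 3.60-fold with a 95% interval of 2.95 to 4.40 (edgeR adjusted p = 8.45e-07). COL1A1, the main chain of collagen I in skin and bone, was rare at 1.51, 0.858 and 0.234 CPM in normoxia and at 3.06, 3.06 and 2.89 CPM in hypoxia. Its normoxia libraries were spread widely and its hypoxia libraries closely. The log2 change was 1.74 ± 0.49 (SE, edgeR adjusted p = 0.00949), and it lay between 1.29 without normoxia replicate 3 and 2.43 without normoxia replicate 1. COL11A2, a cartilage chain, was at 0.133, 0.368 and 0.292 CPM and then at 0.844, 1.83 and 1.38 CPM, which is 2.38 ± 0.52 (SE) on the log2 scale (edgeR adjusted p = 0.0023). Normoxia replicate 1 held just 3 counts of it, the floor of detection.

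The other fibrillar chains were too low to test. COL1A2 had 0, 0 and 2 counts in normoxia and 0 in each hypoxia library, and COL3A1, the chain of collagen III, had 2, 1 and 0 and then 0 in each. COL5A2, the usual partner of COL5A1, had 25, 6 and 14 counts in normoxia and 3, 2 and 3 in hypoxia. COL2A1, COL5A3, COL11A1 and COL24A1 had at most 7 counts in any library. In hypoxia, COL1A2 and COL5A2, with which COL1A1 and COL5A1 usually assemble, were at or under the floor of 3 counts in every library. Per kilobase the COL5A1 level was 4.26, 11.1 and 4.95 times that of COL5A2 in normoxia and 309, 519 and 523 times that in hypoxia. The ratios did not overlap (2-sided exact permutation p = 0.10, the smallest that 3 against 3 allows). The COL5A2 counts are so low that the ratio is imprecise. With no filter on low counts, COL5A2 fell by 1.86 on the log2 scale (edgeR adjusted p = 0.0316). Where leaving out 1 library brought it over the filter, its edgeR adjusted p was between 0.0177 and 0.0813. It entered those fits through its normoxia level, a way of entry that favours a fall. Its direction there is no independent support.

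The core letters that hypoxia-inducible factors bind, ACGTG or GCGTG, were searched on both strands of promoter windows from RefSeq (GRCh38.p14), which run from 250 bases before to 50 bases after the gene start chosen in that table. For COL4A2, COL4A6, COL6A6, COL10A1, COL11A2, COL18A1 and COL21A1 that start lies over 1 kb from the outermost start in GENCODE, by 1472 bases for COL4A2 and 14907 for COL11A2, so other starts of these genes were not searched. Of the 44 chains, 32 had a window, and 14 of these (43.8%) held a match, beside 48.4% of all 35116 windows. Of the 7 chains that rose and had a window, COL5A1 and COL13A1 held 1 match each and COL27A1, COL7A1, COL17A1, COL6A3 and COL11A2 none. Of the 9 chains not called that had a window, 6 held a match, among them COL12A1 with 2. Windows are shown for the chain with the largest rise, for 2 other abundant chains that rose, and for the collagen IV chain COL4A2, which did not. They are written 5′ to 3′ on the strand of the gene, with matches in capitals, and CACGT and CACGC are the same letters on the opposite strand. A sequence CACGTG would match on both strands, and none of these 4 holds it. The windows are chr9:134641555-134641854 (plus strand) for COL5A1, chr10:69801656-69801955 (plus strand) for COL13A1, chr9:114155287-114155586 (plus strand) for COL27A1 and chr13:110307034-110307333 (plus strand) for COL4A2.
COL5A1: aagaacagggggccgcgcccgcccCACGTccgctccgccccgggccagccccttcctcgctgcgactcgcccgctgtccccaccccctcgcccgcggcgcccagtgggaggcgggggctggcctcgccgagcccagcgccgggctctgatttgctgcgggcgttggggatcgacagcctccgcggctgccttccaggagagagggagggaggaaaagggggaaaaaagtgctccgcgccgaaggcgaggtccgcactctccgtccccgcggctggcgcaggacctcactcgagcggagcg
COL13A1: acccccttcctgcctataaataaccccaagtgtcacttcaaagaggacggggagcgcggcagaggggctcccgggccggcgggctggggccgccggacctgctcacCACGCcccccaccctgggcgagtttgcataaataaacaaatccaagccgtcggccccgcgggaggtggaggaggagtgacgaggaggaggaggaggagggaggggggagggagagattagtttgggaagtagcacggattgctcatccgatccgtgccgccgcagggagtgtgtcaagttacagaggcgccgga
COL27A1: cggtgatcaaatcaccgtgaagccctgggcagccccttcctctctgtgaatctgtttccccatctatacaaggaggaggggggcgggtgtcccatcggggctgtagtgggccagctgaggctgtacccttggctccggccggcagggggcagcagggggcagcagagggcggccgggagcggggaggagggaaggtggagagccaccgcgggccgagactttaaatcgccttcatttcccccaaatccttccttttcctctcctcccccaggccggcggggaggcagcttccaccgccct
COL4A2: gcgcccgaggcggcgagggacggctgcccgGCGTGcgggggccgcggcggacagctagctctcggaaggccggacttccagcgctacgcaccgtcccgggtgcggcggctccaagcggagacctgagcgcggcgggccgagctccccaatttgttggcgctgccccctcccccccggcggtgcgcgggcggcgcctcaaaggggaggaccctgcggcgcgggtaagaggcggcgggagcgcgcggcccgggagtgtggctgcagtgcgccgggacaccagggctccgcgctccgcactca
A match is a description of the letters and not evidence of binding.

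Of 6 chains of the basement membrane network, 4 were tested, of which 0 rose and 1 fell. Over all tested genes, 31.2% were called higher and 31.0% lower. COL4A1 and COL4A2, which assemble with each other and form the bulk of collagen IV in most tissues, were among the most abundant chains and were not called. COL4A1 (ENSG00000187498, chromosome 13, 110148963 to 110307233) was at 47.7, 48.4 and 53.4 CPM in normoxia and at 47.9, 51.0 and 48.6 CPM in hypoxia. COL4A2 (ENSG00000134871, 110305812 to 110513209) was at 89.5, 84.9 and 90.5 CPM and then at 86.5, 91.0 and 83.1 CPM. The groups overlapped fully for both genes. The 95% interval of the change was 0.847-fold to 1.15-fold for COL4A1 and 0.857-fold to 1.13-fold for COL4A2 (edgeR adjusted p = 0.877 and 0.825). These genes lie head to head, and their promoter windows share 226 bases. Per kilobase, COL4A1 stood at 0.698 to 0.771 of COL4A2 in normoxia and at 0.725 to 0.766 in hypoxia. This level depends on the length used. With principal transcript lengths the means were 7.53 for COL4A1 and 13.6 for COL4A2 in normoxia, and 7.43 and 13.4 in hypoxia. With library totals alone, a scaling that moved the median of all genes to -0.30 on the log2 scale, both were called lower at a log2 change of -0.33 (edgeR adjusted p = 0.0199 and 0.0137), that is, at about the median gene.

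COL4A5, an X-linked chain that assembles with the rarer collagen IV chains, was the single chain of the 21 called lower. It was at 12.2, 12.3 and 12.8 CPM in normoxia and at 6.96, 7.14 and 9.87 CPM in hypoxia. The groups did not overlap, and hypoxia replicate 3 lay nearest to normoxia. The gene was 1.54-fold lower, or -0.62 ± 0.18 (SE) on the log2 scale (edgeR adjusted p = 0.011). COL4A3, a chain of kidney and lung basement membranes, was at 0.642 to 1.55 CPM in normoxia and 0.527 to 0.714 CPM in hypoxia (adjusted p = 0.209, edgeR), and 120 of its exon bases overlap MFF-DT on the opposite strand. Its head-to-head neighbour COL4A4 had 13, 4 and 9 counts and then 1, 1 and 2, and COL4A6, which lies head to head with COL4A5, had 3, 7 and 6 and then 1, 1 and 2. Neither was tested.

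Collagen VI chains, which assemble from COL6A1, COL6A2 and COL6A3, changed unequally. COL6A1 (ENSG00000142156, chromosome 21, 45981737 to 46005050) was at 31.7, 29.1 and 35.3 CPM in normoxia and at 54.5, 55.9 and 58.9 CPM in hypoxia, with no overlap. It rose 1.76-fold with a 95% interval of 1.49 to 2.08 (edgeR adjusted p = 8.54e-05). COL6A3 rose 2.27-fold from a lower level, from 3.24, 2.14 and 2.86 CPM to 6.33, 6.93 and 5.66 CPM, again without overlap (edgeR adjusted p = 0.00143). COL6A2, which lies 93.0 kb from COL6A1 on the same strand, was at 23.0, 20.0 and 21.5 CPM and then at 24.7, 25.8 and 22.7 CPM. These ranges overlapped and the change was not called, with a 95% interval of -0.10 to 0.45 for the log2 change (edgeR adjusted p = 0.232). The level per kilobase of COL6A1 was 1.39, 1.47 and 1.66 times that of COL6A2 in normoxia and 2.23, 2.18 and 2.62 times that in hypoxia. The ratios did not overlap, and the difference of 0.64 in the log2 ratio had the smallest 2-sided exact permutation p that the design allows, 0.10. The ratio of COL6A3 to COL6A1 overlapped between the groups, with a log2 difference of 0.39 (2-sided exact permutation p = 0.20). The other collagen VI chains, COL6A5 and COL6A6, had at most 17 counts in any library.

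**Figure D3:**
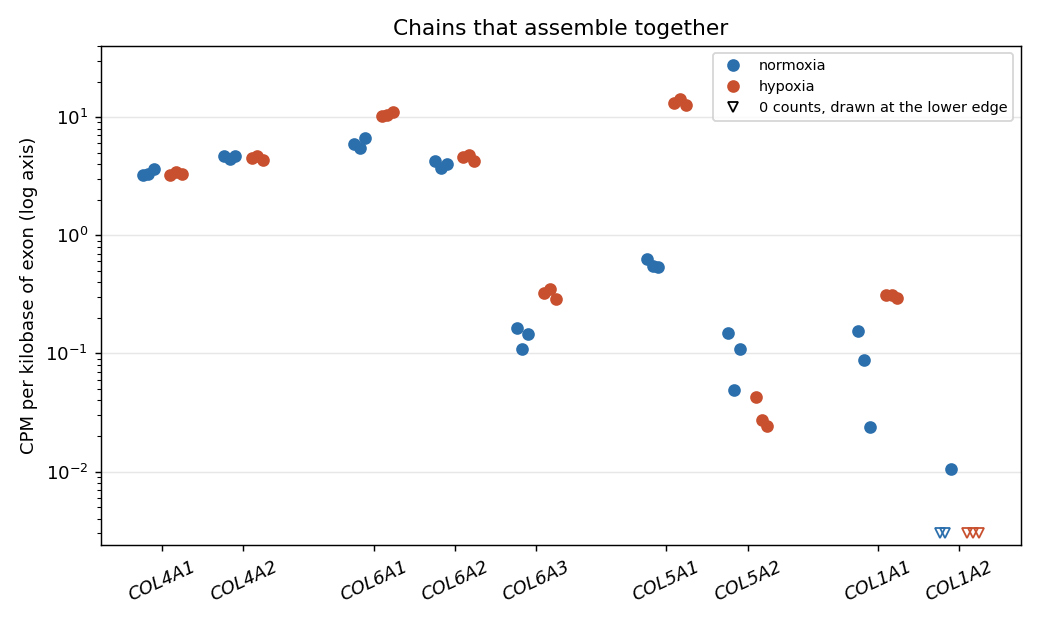
CPM per kilobase of exon on a log axis for chains that assemble with each other, 1 point per library. COL4A1 and COL4A2 each keep their own level across the groups. COL6A1 lies above COL6A2 in normoxia and further above it in hypoxia. COL5A1 and COL5A2 move apart, and COL1A2 has 0 counts in 5 of 6 libraries.

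Of 4 transmembrane chains, the 2 that were tested rose, beside 31.2% of all tested genes called higher. COL13A1 (ENSG00000197467, chromosome 10, 69801867 to 69964275), which sits at cell adhesion sites and at the neuromuscular junction, was at 72.9, 64.9 and 63.9 CPM in normoxia and at 132, 122 and 168 CPM in hypoxia. The lowest hypoxia library was well above the highest normoxia library. The rise was 2.09-fold with a 95% interval of 1.72 to 2.54 (edgeR adjusted p = 3.66e-05). COL17A1, the hemidesmosome collagen that ties epithelial cells to their basement membrane, was at 1.73, 1.65 and 1.40 CPM and then at 6.43, 6.73 and 5.84 CPM. Its libraries were close within each group, and it rose 3.93-fold (edgeR adjusted p = 4.17e-05). COL7A1 (chromosome 3, 48564073 to 48595267), the chain of the anchoring fibrils beneath epithelial basement membranes, was at 2.40, 1.72 and 1.75 CPM and then at 9.70, 8.05 and 15.8 CPM. Hypoxia replicate 3 was the highest, but all 3 hypoxia libraries lay above normoxia, and the log2 change was 2.51 ± 0.29 (SE, edgeR adjusted p = 2.9e-05). The keratinocyte and epithelial marker list, summed at 13.2 to 18.4 CPM in normoxia and 24.7 to 55.8 CPM in hypoxia, rested almost wholly on KRT10, and KRT5, KRT14, KRT1, EPCAM and CDH1 were below 0.2 CPM on average in both groups. COL23A1 and COL25A1 had at most 5 counts in any library.

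The fibril-associated chains held the most abundant member without a called change. COL12A1 (ENSG00000111799, chromosome 6, 75084326 to 75206051), which coats fibrils in tissues under load, was at 251, 239 and 224 CPM in normoxia and at 238, 280 and 313 CPM in hypoxia. These ranges overlapped, and the 95% interval of the change was 0.984-fold to 1.38-fold (edgeR adjusted p = 0.104). Without hypoxia replicate 1 it was called higher at a log2 change of 0.31 (adjusted p = 0.031, edgeR), and with library totals alone the sign turned, at -0.09. COL16A1 was at 1.10 to 1.75 CPM in normoxia and at 1.69 to 2.11 CPM in hypoxia (edgeR adjusted p = 0.219). COL9A3 was at 0.490 to 0.887 CPM and then at 0.844, 0.204 and 0.120 CPM, and leaving out hypoxia replicate 1 made it called lower, with -2.19 on the log2 scale (edgeR adjusted p = 0.0246). On the opposite strand 45 of its exon bases overlap TCFL5, which had 431 to 690 counts per library. The other 7 fibril-associated chains, COL9A1, COL9A2, COL14A1, COL19A1, COL20A1, COL21A1 and COL22A1, had at most 13 counts in any library. The highest of these counts was in COL20A1, with 1, 2 and 3 counts in normoxia and 13, 5 and 4 in hypoxia.

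Short-chain network collagens and multiplexins showed no called change, where 62.2% of all tested genes were called. COL8A1 and COL8A2, chains of the sheet beneath the corneal endothelium, pointed in opposite directions. COL8A1 was at 2.71, 1.96 and 2.39 CPM in normoxia and at 1.27, 1.33 and 2.29 CPM in hypoxia (edgeR adjusted p = 0.221, or 0.0471 without hypoxia replicate 3). COL8A2 was at 0.311, 0.735 and 0.992 CPM and then at 1.05, 1.22 and 1.5 CPM (adjusted p = 0.103, edgeR). Per kilobase, COL8A1 stood at 1.20 to 4.33 times COL8A2 in normoxia and at 0.538 to 0.755 times in hypoxia, without overlap (2-sided exact permutation p = 0.10, the smallest possible). Which chain was higher in hypoxia depends on the length used. Per kilobase of principal transcript, COL8A1 was then at 0.285 ± 0.101 and COL8A2 at 0.270 ± 0.0487 (SD, n = 3). COL10A1, a chain of growth-plate cartilage, was at 0.467 to 0.919 CPM and then at 0.602 to 1.33 CPM. COL18A1, a basement membrane multiplexin whose end piece is released as endostatin, was at 19.7, 16.6 and 14.9 CPM and then at 19.9, 17.8 and 23.3 CPM, with overlap and a 95% interval of 0.941-fold to 1.52-fold. Of its exon bases 16.4% overlap SLC19A1 on the opposite strand, and since the strand setting of the counting is not given, its level is uncertain. COL15A1, COL26A1 and COL28A1 had at most 5 counts in any library.

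**Figure D4:**
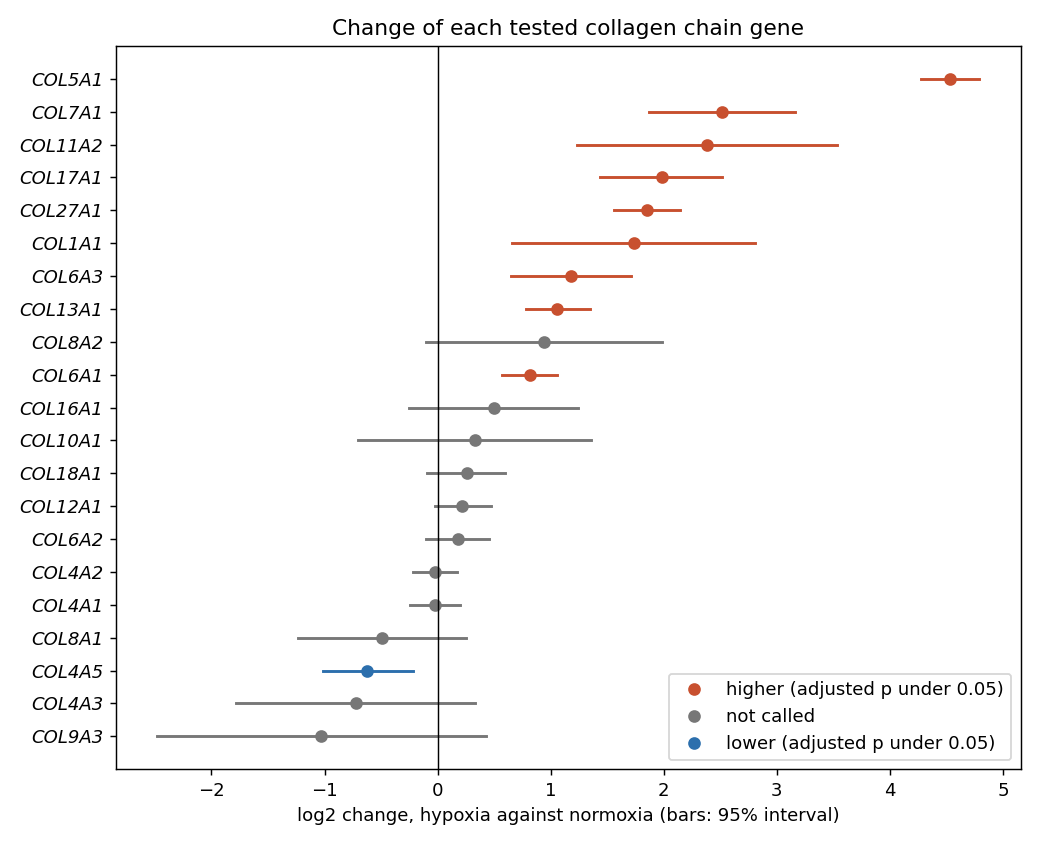
Log2 change of each of the 21 tested chains in hypoxia against normoxia, with 95% intervals as bars. The 9 chains called higher range from 0.82 for COL6A1 to 4.53 for COL5A1, COL4A5 at -0.62 is the single chain called lower, and the intervals of COL4A1 and COL4A2 are narrow around 0.

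The 23 untested chains held 0.468% of all collagen counts. Each had between 1 and 53 counts over the 6 libraries, so every chain gene had at least 1 count, and 15 had at most 5 counts in every library. Their low counts do not show that they were absent, and 3 of them, COL5A2, COL9A2 and COL20A1, were called when no filter on low counts was used. These calls rest on few counts. COL9A2 had 10, 1 and 2 counts in normoxia and 0 in each hypoxia library. On chromosome 21, COL18A1, COL6A1 and COL6A2 lie in order with gaps of 468 kb and 93.0 kb, and of the 3 only COL6A1 was called.

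Genes that modify, export, cut, bind and degrade collagen were read from the same fit, in lists written with earlier results of these data known. Their counts are to be read beside the 62.2% of all tested genes that were called, 31.2% higher and 31.0% lower. Of 18 genes for hydroxylation, glycosylation and folding, 13 rose and 2 fell. The prolyl hydroxylase genes P4HA2 and P4HA1 and the lysyl hydroxylase gene PLOD2 had log2 changes of 3.74 ± 0.13, 3.64 ± 0.11 and 3.60 ± 0.21 (SE), and PLOD2 reached 1740 ± 529 CPM (SD, n = 3). The glycosyltransferase gene COLGALT2 fell from 12.4 ± 0.861 to 2.72 ± 0.517 CPM. Of 5 crosslinking lysyl oxidases, 2 rose, LOX from 127 ± 7.70 to 2530 ± 238 CPM and LOXL2 1.94-fold, and 0 fell.

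Of 13 genes for procollagen export, 6 rose and 4 fell, where 62.2% of all tested genes were called in either direction. The coat subunits SEC24A and SEC24D, which select cargo for vesicles leaving the endoplasmic reticulum, rose 4.18-fold and 2.75-fold. KLHL12, an adaptor that helps to enlarge these vesicles, fell 2.16-fold. Of 7 tested genes for propeptide removal, 3 rose and 3 fell. The protease gene BMP1 rose from 28.4 ± 4.0 to 51.8 ± 12.6 CPM, while its enhancer PCOLCE fell from 86.2 ± 1.17 to 29.6 ± 1.83 CPM. The related enhancer PCOLCE2 rose 1.49-fold.

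Of 9 tested collagen receptors, 3 rose and 1 fell, again beside 31.2% higher and 31.0% lower over all tested genes. MRC2, which takes up collagen fragments, rose 3.89-fold and the receptor kinase DDR1 1.72-fold, whereas the integrin subunit ITGA10 fell from 5.70 ± 0.337 to 1.05 ± 0.923 CPM. Of 10 tested genes for degradation and its inhibition, 3 rose and 4 fell. The inhibitor TIMP1 rose 3.21-fold, the membrane protease MMP16 fell 3.00-fold and PEPD, which recycles proline from collagen fragments, fell 2.20-fold. Of 9 tested fibril partners, 4 rose and 3 fell. LUM, a proteoglycan that spaces fibrils, fell from 13.8 ± 0.101 to 1.08 ± 0.545 CPM, MATN2 fell 2.47-fold and TNXB rose 2.35-fold. Of 13 tested basement membrane partners of collagen IV, 6 rose and 3 fell, with the laminin chains LAMB3 and LAMB2 2.90-fold and 2.62-fold higher and LAMA1 3.32-fold lower. The median log2 changes of these 8 lists lay between -0.05 and 0.60.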

How the data were processed

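RNA-seq libraries of 3 normoxic and 3 hypoxic cultures were grouped by sample title. The deposited count table lists unnormalized reads per Ensembl identifier. Per the submitters' processing notes, the tools were featureCounts 2.0.1, HISAT2 2.1.0, fastp 0.20.1 and DESeq2 1.37.5, with build GRCh38.p13. Strand setting and annotation release: not given in the sources used here. Of its lines, 1 names no gene, holds 0.00243% of the counts and was left out. Of 61859 genes, 61756 matched a symbol. Gene types, coordinates and exons are from GENCODE release 29 (GRCh38). A second deposited table, whose cells run together, was not used.

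The fit used edgeR 4.0.16 (R 4.3.3). Low genes were removed with filterByExpr by group at a minimum count of 10 and a total of 15, leaving 16411. TMM scaling (factors 0.866 to 1.16) was followed by the robust quasi-likelihood F test, with p-values adjusted by Benjamini-Hochberg across every tested gene and called under 0.05. SE is the size of the log2 change divided by the square root of F, and 95% intervals use the test's degrees of freedom. CPM uses TMM-scaled totals. Depth was 10619864 to 19554178 counts, and intervals and floors cover counting error or the spread of these libraries only. Libraries of 1 group differed beyond counting noise (mean chi-square 5.75 to 39.3 per gene). The members and lists were chosen with earlier results of these data known. Every chain that passed the filter is named, and from each further list the 3 called members with the largest changes and mean CPM of at least 1, with the largest in the opposite direction, though not all of these are printed. The fit was tested on simulated counts with few changed genes. Of these, 37.1% of 62 at 1.5-fold, 68.2% of 66 at 2-fold and 96.9% of 64 at 4-fold were called. Of 15666 unchanged genes, 10 were called. In the data 62.2% of tested genes were called, and whether these rates hold at such a share was not tested. A chain that was not called may still have changed by a modest amount. Alternatives were DESeq2 1.42.0, other scalings and filters, a replicate block, protein-coding genes alone and leaving out each library.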

Additional observations from a re-analysis of the deposited data

How the results depend on the processing

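All 9 chains that rose and COL4A5, which fell, kept their direction and their call in every alternative fit that tested them. The stricter filter on low counts left 18 chains, without COL11A2, COL4A3 and COL9A3. The number of chains higher stayed between 8 and 10. The number lower was 1, but 3 with library totals alone (COL4A5, COL4A1 and COL4A2) and 3 with no filter on low counts (COL4A5, COL5A2 and COL9A2). That fit also called COL20A1 higher, at a log2 change of 2.40. Leaving out 1 library gave 9 to 10 higher and 1 to 3 lower. Over all genes the same fits gave 4487 to 5283 higher and 4578 to 5630 lower. Library totals alone moved the median log2 change of all genes from 0.01 to -0.30 and gave 3421 higher and 6905 lower, a share higher of 33.1% against 50.1%, and no filter moved the median to -0.16. The sign turned for chains that were not called: with library totals alone COL6A2 was at -0.13, COL12A1 at -0.09 and COL18A1 at -0.06. Among protein-coding genes alone COL4A1 and COL4A2 were each at 0.01, and leaving out 1 library put COL4A1 between -0.07 and 0.02, the highest value being without normoxia replicate 3. Except for the scaling itself, the cause was not tested. The replicate block gave 9 chains higher and 1 lower, with 4862 genes higher and 4906 lower, and changed no call of a chain. Deviations of same-numbered libraries from their group means correlated at -0.106, 0.0864 and -0.0378. With 3 libraries per group, these correlations cannot decide whether equal replicate numbers marked paired libraries. Depth limits what can be said of the 23 untested chains.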
